A study of Sus scrofa with 12 samples.

Results

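The miRNAs described here are the products of the miR-199 and miR-214 hairpins in pig testis. They were taken by name, as every entry of the expression table whose identifier reads miR-199 or miR-214, with or without the pig prefix ssc- and a letter from a to c, and the rule used no measured value. It found 12 of 1452 listed miRNAs, of which 6 carry the pig prefix (ssc-miR-199a-5p, ssc-miR-199a-3p, ssc-miR-199b-5p, ssc-miR-199b-3p, ssc-miR-214-5p and ssc-miR-214-3p) and 6 are named without a species (miR-199-x, miR-199-y, miR-199-z, miR-214-x, miR-214-y and miR-214-z). Small RNA was sequenced from testes of Hezuo (HZ) boars, a pig breed that matures early, and of Landrace (LC) boars. HZ boars aged 30 days form the group Ha and those aged 120 days the group Hb, LC boars aged 30 days form La and those aged 120 days Lb, with 3 libraries in each group. No group carried a treatment or an engineered allele. The study describes RNA as drawn from pooled samples and the labels do not say how many boars stand behind a library, so the p-values below measure the spread between libraries.

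A miRNA hairpin is cut into a duplex whose strands are named for the hairpin arm they come from, 5p or 3p. The strand that is loaded into Argonaute lasts, and its bases 2 to 8, the seed, do most of the pairing with target mRNAs, so products with the same seed are read as a family. In mammals a miR-199a hairpin and the miR-214 hairpin are processed from the same long non-coding transcript, which runs antisense within the dynamin gene DNM3, while the other miR-199 hairpins lie in other dynamin genes. These miRNAs are known from mesenchymal cells such as fibroblasts and from fibrosis, and the testis holds cells of mesenchymal origin in its peritubular layer and interstitium.

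The RefSeq gene table for Sscrofa11.1 places MIR214 at chr9:114527992-114528101 and MIR199A-1 at chr9:114533783-114533858, 5681 bases apart and both within the bounds of DNM3. It places MIR199A-2 at chr2:69558051-69558130 within the bounds of DNM2, and MIR199B at chr1:268691520-268691593 within those of DNM1. The table gives gene bounds and no exons, so whether a hairpin is intronic was not read from it. The mature sequences below, as deposited, are printed because the arms, the paralogues and the end variants differ by few bases and the comparisons turn on which tags an entry could collect. They are written 5′ to 3′ with T for U and the seed in capitals.

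ssc-miR-199a-5p: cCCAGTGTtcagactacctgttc
ssc-miR-199b-5p: cCCAGTGTttagactatctgtt
miR-199-x: cCCAGTGTttagactatctgttct
ssc-miR-199a-3p: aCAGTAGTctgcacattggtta
ssc-miR-199b-3p: tACAGTAGtctgcacattggtt
miR-199-y: aCAGTAGTctgcacattggtat
miR-199-z: aCAGTAGTctgcacattggca
ssc-miR-214-3p: aCAGCAGGcacagacaggcag
miR-214-y: aCAGCAGGcacagacaggcagtt
miR-214-z: aCAGCAGGcacagacaggcagaa
ssc-miR-214-5p: tGCCTGTCtacacttgctgtgc
miR-214-x: tGCCTGTCtacacttgctgtaa

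The 12 sequences hold 5 seeds. Counted from the 5′ end, ssc-miR-199a-5p becomes ssc-miR-199b-5p by the substitutions C10T and C17T, outside the seed that both share, and a tag of either can be told from the other by its bases. The 3p arm cannot be assigned in this way. The ssc-miR-199b-3p sequence is that of ssc-miR-199a-3p begun 1 base earlier and ended 1 base earlier, and the same tags can be listed under both names. In each library the 3p counts of these entries differed by only 4 to 17, at most 0.0189% of the count, so they are given below as a single miR-199 3p arm and enter every sum, ratio and median of the members once. Counts of members are given over the 12 names and, where the 3p arm is among them, also over 11 with it counted once. Among miRNAs outside the rule only 1 predicted by the authors, with 30 counts over all libraries, shared a seed with a member. No entry was named miR-761, miR-3619 or miR-3120.

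The other 6 entries are end variants of these arms. miR-199-x is ssc-miR-199b-5p with 2 further bases at its 3′ end, and miR-214-y and miR-214-z are ssc-miR-214-3p extended in the same way, differing from each other by T22A and T23A. miR-199-y differs from ssc-miR-199a-3p by T21A and A22T, miR-199-z differs from it by T20C and T21A, and miR-214-x differs from ssc-miR-214-5p by G21A and C22A. All these differences lie at the 3′ end, and the seed of the arm is kept.

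The counts on listed miRNAs ranged from 6520197 to 16874633 per library. Levels are given as the authors' TPM, the tag count relative to a library total that was somewhat larger than the sum of the listed counts (7423907 to 18967505). A floor of 3 counts corresponded to 0.158 to 0.404 TPM, which covers counting error only because the PCR reads carry no molecular identifiers. Replicate libraries differed by more than sampling noise, and the chi-square divided by its degrees of freedom ran from 49.45 to 1178.5, highest in pairs that include Hb replicate 2. Scaling by library size in place of TMM moved the median log2 fold change of all miRNAs by 0.22 in La vs. Lb, by 0.27 in Hb vs. Lb and by 0.33 in the test of the difference between the age effects, and calls that it ends are named beside them.

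Together the members took a larger share of the listed miRNA counts at 30 days than at 120 days. In Ha they took 7.93, 7.64 and 7.75% of the listed counts of replicates 1, 2 and 3. The Hb libraries gave 4.43, 3.10 and 3.59%. Each Hb library lay below every other library of the series. In La the share was 8.55, 9.15 and 9.48%. In Lb it was 5.23, 5.68 and 4.86%. The groups did not overlap in any pair, and their means were 9.06% ± 0.473 in La, 7.77% ± 0.145 in Ha, 5.26% ± 0.411 in Lb and 3.71% ± 0.671 in Hb (SD, n = 3). As mean summed TPM, Hb stood at 0.473 of Ha and Lb at 0.567 of La, while La stood at 1.17 times Ha and Lb at 1.41 times Hb. These ratios depend on the scaling. The log2 ratio of Lb over Hb was 0.49 by TPM and 0.23 with TMM scaling, and the age ratios were -1.08 in HZ and -0.82 in LC boars by TPM and -0.96 and -1.06 with TMM scaling, so their order between the breeds turned. A share of all miRNA tags falls where other miRNAs rise, and in whole testis a smaller number of cells of a type cannot be told apart from less of the miRNA per cell.

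**Figure D1:**
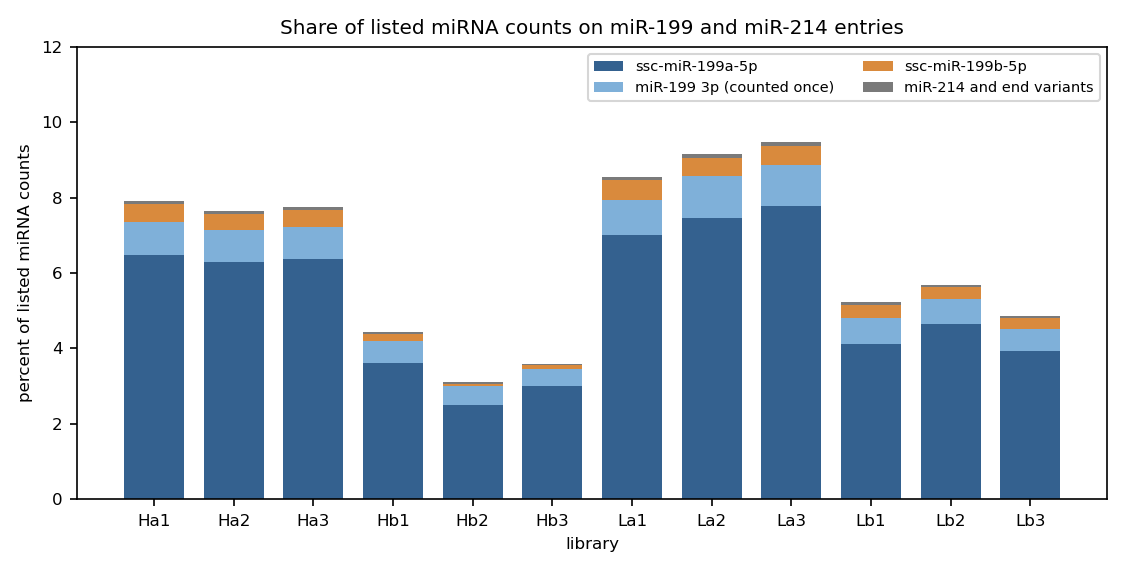
Percent of listed miRNA counts (vertical axis) taken by miR-199 and miR-214 entries in each of the 12 libraries (horizontal axis), stacked by entry, with the miR-199 3p arm counted once. The bars stand between 7.64 and 9.48% at 30 days and between 3.10 and 5.68% at 120 days, and ssc-miR-199a-5p makes up most of every bar.

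Most of these counts belonged to ssc-miR-199a-5p. It held 78.8 to 83.3% of the member counts in every library and ranked 3 or 4 by level among all listed miRNAs in Ha and 3 in La. Its rank was 8 to 10 in Hb and 5 to 8 in Lb. The miR-199 3p arm followed at 4035 to 9906 TPM and ssc-miR-199b-5p at 519 to 4626 TPM. The miR-214 hairpin gave far fewer tags. Its main product ssc-miR-214-3p ranged from 167 to 454 TPM and its other arm ssc-miR-214-5p from 11.9 to 24.9 TPM. At the low end, miR-199-z had 2 to 27 counts per library and miR-214-x had 0 to 4, with 0 in all Ha libraries, so no fold change is given for miR-214-x.

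**Figure D2:**
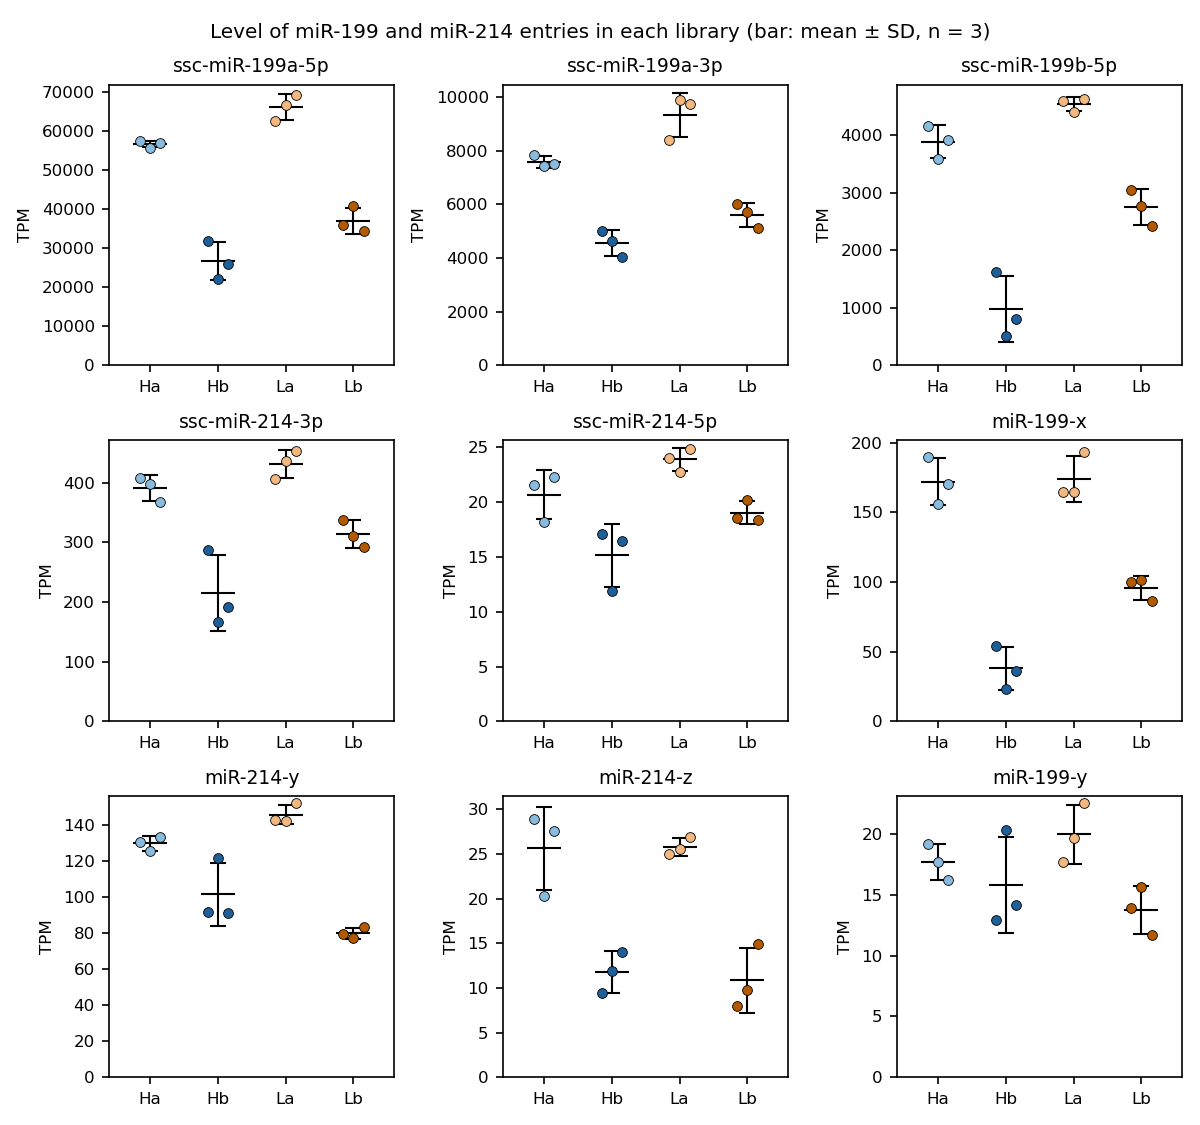
Level in TPM (vertical axes, each from 0) of 9 entries in the 3 libraries of Ha, Hb, La and Lb, with bars at the mean ± SD. ssc-miR-199a-5p, the miR-199 3p arm (shown as ssc-miR-199a-3p) and ssc-miR-199b-5p are lower at 120 than at 30 days in both breeds without overlap, and ssc-miR-199b-5p and miR-199-x are lowest in Hb.

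In HZ boars, the age comparison Ha vs. Hb asked which miRNAs differ between the immature and the mature testis. Of the 12 entries, 4 were lower at 120 days with an adjusted p under 0.05 in edgeR's quasi-likelihood test, after Benjamini-Hochberg adjustment over all miRNAs, and 0 were higher. Of all 1441 miRNAs tested 13.0% were lower and 21.3% higher by that rule. The study's thresholds were a log2 fold change beyond 1 in either direction and p under 0.05 without adjustment. They called 2 entries lower, against 14.4% of all miRNAs. The median log2 fold change was -0.67 over 10 members, with the 3p arm once and miR-214-x, at 0 to 4 counts, left out, and 0.32 over all miRNAs tested.

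ssc-miR-199a-5p, the most abundant product, was at 57241, 55661 and 56874 TPM in Ha and at 31809, 22149 and 25986 TPM in Hb. Every Hb library lay well below every Ha library. It fell by 0.97 on the log2 scale (SE 0.21, adjusted p = 0.00296). The call was lost without Ha replicate 1, where the log2 fold change was -0.93 and the adjusted p was 0.0872.

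ssc-miR-199b-5p, the paralogue with the same seed, was at 4158, 3581 and 3915 TPM in Ha. In Hb it was at 1616, 519 and 814 TPM. The lowest Ha library held more than any Hb library, and Hb replicate 1 was the highest of its group. The log2 fold change was -1.96 (SE 0.273, adjusted p = 0.000114). Its end variant miR-199-x was at 190, 156 and 171 TPM in Ha and at 54.4, 23.4 and 36.4 TPM in Hb, in the same order within Hb. It fell by 2.11 on the log2 scale (SE 0.276, adjusted p = 7.05e-05). These 2 entries are those called by the study's thresholds, and both kept an adjusted p under 0.05 under every alternative that tested them, each library left out in turn included, where ssc-miR-199b-5p stayed between -2.15 and -1.77.

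The miR-199 3p arm was at 7840, 7435 and 7505 TPM in Ha and at 4996, 4631 and 4035 TPM in Hb. The libraries of the groups did not overlap, yet its log2 fold change of -0.58 (SE 0.245) had an adjusted p of 0.0815 in edgeR's test. It rested on single libraries. Without Hb replicate 2 the log2 fold change was -0.81 and the adjusted p 0.000382, without Hb replicate 1 the log2 fold change was -0.34, and without Ha replicate 1 the adjusted p was 0.356. It also passed with library size scaling (adjusted p = 0.0303) and with all 12 libraries in 1 fit (adjusted p = 0.0191).

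ssc-miR-214-3p, the main product of the hairpin that shares a transcript with miR-199a, was at 408, 399 and 368 TPM in Ha. Its Hb libraries held 287, 167 and 192 TPM. All Hb libraries lay below all Ha libraries, and it fell by 0.77 on the log2 scale (SE 0.244, adjusted p = 0.0259). This call was lost in edgeR's test with scaling by library size (adjusted p = 0.0683), a replicate block (0.0508) or end variants summed (0.0742). It was also lost without Ha replicate 1, 2 or 3 or Hb replicate 3 (adjusted p = 0.155, 0.106, 0.0579 and 0.107). ssc-miR-214-5p had a log2 fold change of -0.33 (adjusted p = 0.42). Among the end variants that did not pass, miR-214-z had -0.94 (adjusted p = 0.0552), miR-214-y -0.15 (adjusted p = 0.736), miR-199-y 0.06 (adjusted p = 0.912) and miR-199-z 0.11 (adjusted p = 0.896). As TPM, 9 of the 12 entries (8 of 11) did not overlap between Ha and Hb and were lower in Hb, against 20.7% of all miRNAs.

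The same age comparison in LC boars, La vs. Lb, gave lower values over nearly all members. By adjusted p under 0.05 in edgeR's quasi-likelihood test 10 of 12 entries (9 of 11) were lower at 120 days and 0 higher, against 13.4 and 26.8% of all 1446 miRNAs tested. The study's thresholds called 4 lower (ssc-miR-199a-5p, miR-199-x, miR-214-y and miR-214-z), against 5.81% of all miRNAs. With library size scaling only 1 entry passed those thresholds. The median log2 fold change was -0.91 over the same 10 members and 0.32 over all miRNAs.

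ssc-miR-199a-5p was at 62488, 66664 and 69094 TPM in La and at 35807, 40636 and 34297 TPM in Lb. The groups were far apart compared with the spread within each. It fell by 1.02 on the log2 scale (SE 0.113, adjusted p = 1.52e-05). The miR-199 3p arm was at 8410, 9906 and 9731 TPM in La and at 6013, 5703 and 5123 TPM in Lb, without overlap. It fell by 0.92 (SE 0.11, adjusted p = 2.84e-05).

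ssc-miR-199b-5p was at 4599, 4396 and 4626 TPM in La and at 3046, 2776 and 2421 TPM in Lb. Its 3 La libraries sat close together and above all Lb libraries, and it fell by 0.91 on the log2 scale (SE 0.102, adjusted p = 1.71e-05). Its end variant miR-199-x, at 165, 164 and 193 TPM in La and 100, 102 and 86.1 TPM in Lb, fell by 1.04 (SE 0.138, adjusted p = 6.54e-05).

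ssc-miR-214-3p was at 407, 436 and 454 TPM in La and at 339, 311 and 292 TPM in Lb. It did not overlap between the ages and fell by 0.65 on the log2 scale (SE 0.113, adjusted p = 0.000604). Its end variants miR-214-y and miR-214-z fell by 1.05 (adjusted p = 2.69e-05) and 1.42 (adjusted p = 0.00048). ssc-miR-214-5p fell by 0.51 (adjusted p = 0.0315) and miR-199-y by 0.73 (adjusted p = 0.0132), and both calls depended on the setting. Library size scaling ended both (adjusted p = 0.196 and 0.0603), as did leaving out single libraries, where the adjusted p reached 0.148 and 0.0847, and all 12 libraries in 1 fit ended that of miR-199-y (adjusted p = 0.0665). miR-199-z had -0.27 (adjusted p = 0.62). As TPM, 10 of the 12 entries (9 of 11) did not overlap and were lower in Lb, against 14.0% of all miRNAs.

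**Figure D3:**
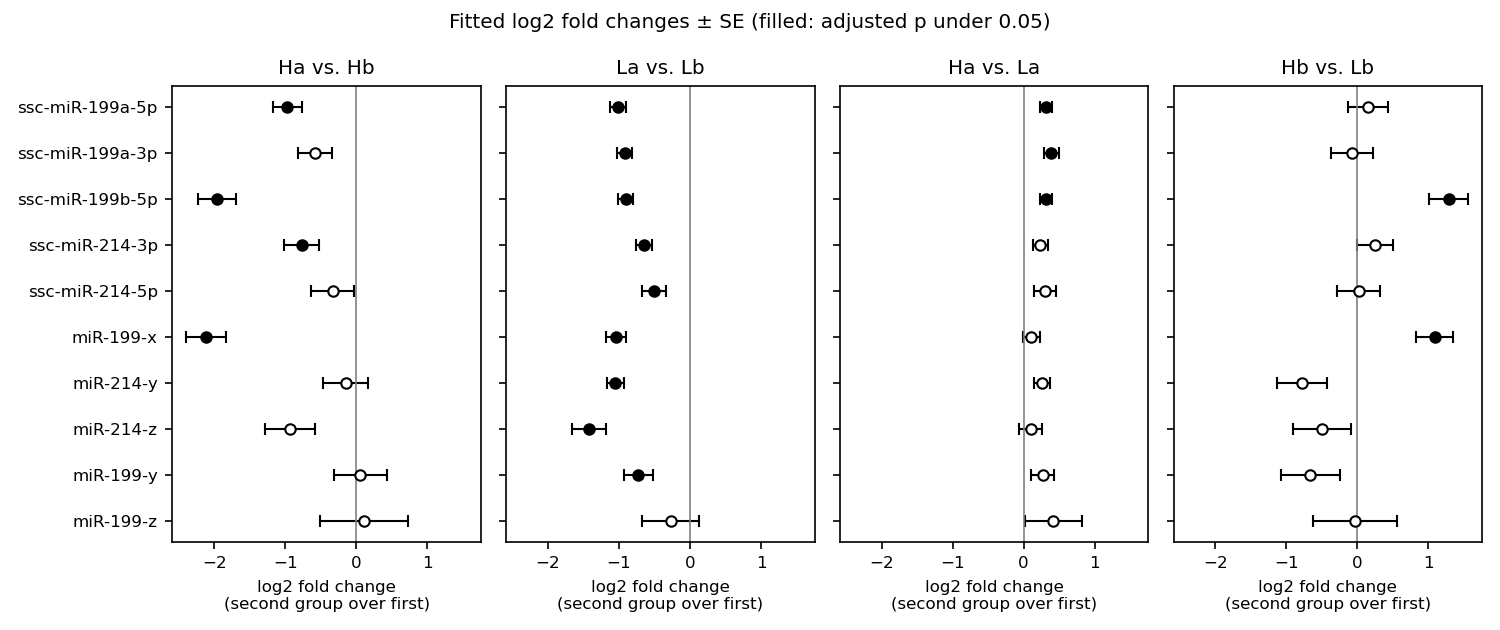
Log2 fold changes ± SE (horizontal axes) fitted by edgeR for 10 entries in the 4 comparisons, with filled points for an adjusted p under 0.05. ssc-miR-199b-5p and miR-199-x lie near -2 in Ha vs. Hb and near -1 in La vs. Lb, and they are the filled points of Hb vs. Lb.

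Whether the age effects of the breeds differ was tested directly as an interaction over all 12 libraries. By adjusted p under 0.05, 0 of 12 entries passed in edgeR's quasi-likelihood test, against 1.38% of all miRNAs, while 4 had an unadjusted p under 0.05, against 21.1%. By the study's thresholds 2 passed (miR-199-x and miR-214-x), against 17.1%, a share near that of all miRNAs. The widest gap among the well-counted entries was in the miR-199b products. For ssc-miR-199b-5p the age effect in LC minus that in HZ was 0.999 on the log2 scale (SE 0.282, unadjusted p = 0.00276, adjusted p = 0.0686). For miR-199-x it was 1.02 (SE 0.262, unadjusted p = 0.00138, adjusted p = 0.0547). With DESeq2 their adjusted p-values were 0.012 and 0.00109, with edgeR's filter on low counts 0.0461 and 0.0417, and without Hb replicate 1 0.00111 and 0.00679. Without Hb replicate 2 that of miR-199-x was 0.0403. With other single libraries left out the adjusted p of ssc-miR-199b-5p reached 0.148. For ssc-miR-199a-5p, which shares the seed and differs from ssc-miR-199b-5p at C10T and C17T, the difference was -0.11 (SE 0.204, adjusted p = 0.89). That of the miR-199 3p arm was -0.40 (SE 0.26, adjusted p = 0.415), and for both the sign turned with library size scaling.

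Between the breeds at 30 days, Ha vs. La, 4 of 12 entries (3 of 11) were higher in LC boars by adjusted p under 0.05 and 0 lower, against 5.01 and 6.34% of all 1278 miRNAs tested. By the study's thresholds 1 was called, miR-214-x at 0 to 4 counts, against 3.76%. The entries were ssc-miR-199a-5p (log2 fold change 0.31, SE 0.0864, adjusted p = 0.0302), ssc-miR-199b-5p (0.32, SE 0.0898, adjusted p = 0.0337) and both names of the 3p arm (0.39, SE 0.0988, adjusted p = 0.0199). The levels given above show that each was higher in every La library than in every Ha library, by small steps. These calls did not last, since 0 remained with library size scaling or with all 12 libraries in 1 fit, and with ssc-miR-199b-3p left out of the counts that of ssc-miR-199b-5p was lost (adjusted p = 0.0505). ssc-miR-214-3p had 0.23 (adjusted p = 0.187) and its libraries overlapped. As TPM, 6 of the 12 entries (5 of 11) were higher in La without overlap, against 10.7% of all miRNAs.

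At 120 days, Hb vs. Lb, the products of the miR-199b hairpin that can be told apart by sequence were higher in LC boars. ssc-miR-199b-5p had a mean of 983 TPM ± 568 in Hb and 2748 TPM ± 313 in Lb (SD, n = 3), with a log2 fold change of 1.28 (SE 0.274, adjusted p = 0.0297). miR-199-x had means of 38.1 TPM ± 15.6 and 96.0 TPM ± 8.58, with 1.09 (SE 0.265, adjusted p = 0.0429). These 2 of 12 entries were the ones higher by adjusted p in edgeR's quasi-likelihood test, with 0 lower, against 1.11 and 2.15% of all 1444 miRNAs, and the same 2 were called by the study's thresholds, against 8.45%. Neither passed with library size scaling, where the adjusted p of ssc-miR-199b-5p was 0.0883. Without Hb replicate 3, Lb replicate 1 or Lb replicate 2 that of ssc-miR-199b-5p was 0.155, 0.135 and 0.0653. For miR-199-x it was 0.141 with library size scaling, 0.0515 with RLE, 0.162 without Hb replicate 3, and 0.195, 0.103 and 0.0818 without Lb replicates 1, 2 and 3.

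ssc-miR-199a-5p was higher in every Lb library than in every Hb library as TPM, but its log2 fold change after TMM scaling was 0.15 (SE 0.278, adjusted p = 0.802). The levels of ssc-miR-199a-5p thus ran La, Ha, Lb, Hb from high to low, and the last neighbours did not differ beyond their spread in that test. The 3p arm had -0.08 (SE 0.296, adjusted p = 0.914), with the sign turned by library size scaling (0.32) and by leaving out Hb replicate 2 (0.29). ssc-miR-214-3p had 0.25 (adjusted p = 0.591). As TPM, 7 of the 12 entries (6 of 11) were higher in Lb without overlap, against 18.6% of all miRNAs, and 1 was lower, miR-214-y, against 7.96%. The pairs of groups used here share libraries, so the values of the 4 comparisons stand side by side and are not independent of each other.

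Ratios within a library need no scaling between libraries. The arms of the hairpins gave tags in opposite proportion, and how far tag counts reflect use of the arms was not tested. The 5p tags of miR-199, ssc-miR-199a-5p and ssc-miR-199b-5p together, outnumbered the 3p tags in every library. The ratio was 7.83, 7.97 and 8.10 in Ha. It was 6.69, 4.90 and 6.64 in Hb. The Hb libraries lay below the Ha libraries, replicate 2 the farthest. In La the ratio was 7.98, 7.17 and 7.58. It was 6.46, 7.61 and 7.17 in Lb, overlapping with La. For miR-214 the 3p tags were the more numerous instead. The ratio of 5p to 3p tags averaged 0.0530 ± 0.00758 in Ha and 0.0722 ± 0.0131 in Hb (SD, n = 3). The LC groups averaged 0.0554 ± 0.00351 (La) and 0.0609 ± 0.00528 (Lb).

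Over both breeds, the log2 ratio of miR-199 5p to 3p was 0.25 lower at 120 than at 30 days, with p = 0.02 in a two-sided exact permutation test of age within breed and p = 0.05 after adjustment over the 4 ratios. The log2 ratio of miR-214 5p to 3p was 0.29 higher, with p = 0.025 in the same exact permutation test and p = 0.05 after adjustment. Both adjusted values equal the threshold and so did not pass it. Under other settings the adjusted p ran from 0.04 to 0.1875 for both. The test has 400 arrangements and a smallest possible p of 0.005. No breed difference in these ratios passed, with log2 differences of 0.08 (exact permutation p = 0.54) and -0.08 (exact permutation p = 0.5).

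The paralogues were compared by the ratio of ssc-miR-199b-5p to ssc-miR-199a-5p, whose tags are told apart by C10T and C17T. It was 0.0727, 0.0643 and 0.0688 in Ha. The Hb libraries gave 0.0508, 0.0234 and 0.0313. All Hb libraries lay below all others of the series, in which the ratio ranged from 0.0643 to 0.0851. It was 0.0736, 0.0659 and 0.0670 in La and 0.0851, 0.0683 and 0.0706 in Lb. In log2 the ratio was 1.04 lower in Hb than in Ha and 1.15 lower in Hb than in Lb, each with p = 0.1 in the exact permutation test of 3 against 3 libraries, the smallest p that it allows. La and Lb differed by 0.11 (exact permutation p = 0.5). The breed difference within age over all libraries was 0.58 (exact permutation p = 0.05, adjusted p = 0.2), and the age difference within breed -0.46 (exact permutation p = 0.105, adjusted p = 0.14), so neither passed.

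The ratio of ssc-miR-214-3p to the miR-199 3p arm, had no age or breed difference that passed the test over all libraries. It averaged 0.0516 ± 0.00236 in Ha and 0.0471 ± 0.0107 in Hb (SD, n = 3). In the LC groups it was 0.0463 ± 0.00221 (La) and 0.0560 ± 0.00130 (Lb). The age difference within breed was 0.06 (exact permutation p = 0.665), and the breed difference within age was also 0.06 (exact permutation p = 0.72). These values pool differences of opposite sign. The log2 ratio was 0.27 higher in Lb than in La and -0.15 in La relative to Ha, both without overlap and at p = 0.1, the smallest p that the exact permutation test of 3 against 3 allows. Hb relative to Ha gave -0.16 (exact permutation p = 0.6) and Lb relative to Hb 0.28 (exact permutation p = 0.4), both with overlap. The 3p arm pools tags of all miR-199 hairpins, so this ratio does not isolate the hairpin near miR-214.

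**Figure D4:**
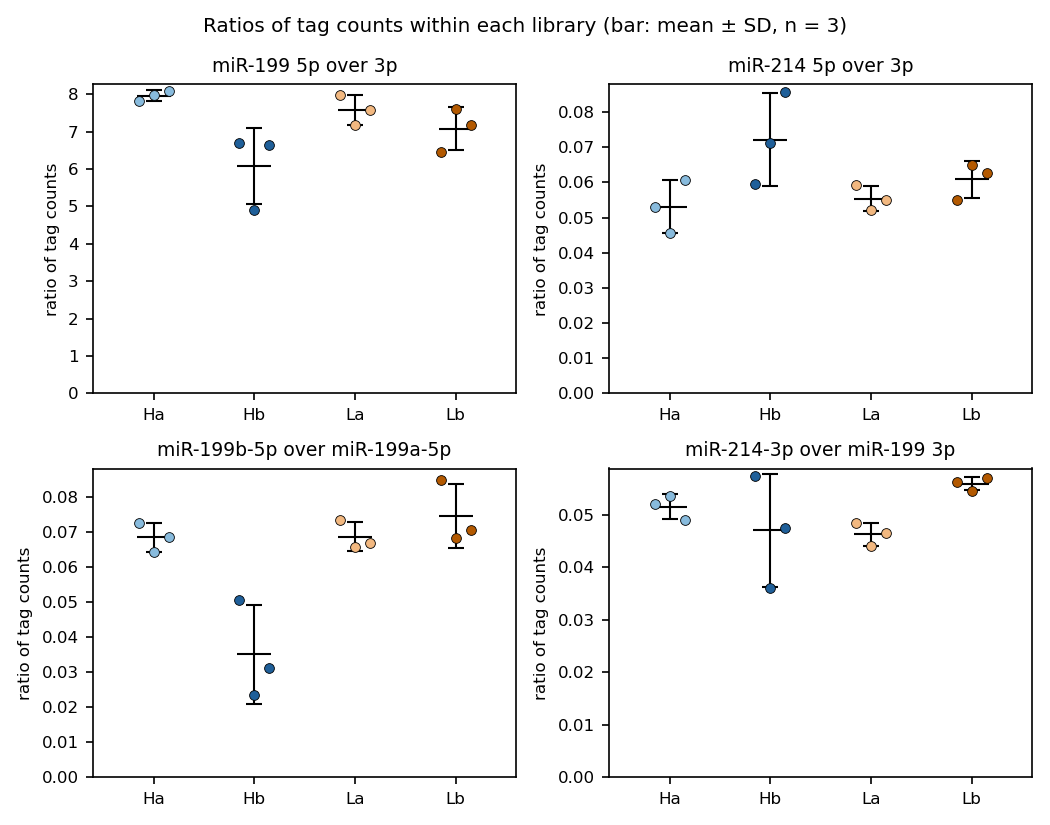
Ratios of tag counts within each library (vertical axes, each from 0) in the 3 libraries of Ha, Hb, La and Lb, with bars at the mean ± SD. The ratio of ssc-miR-199b-5p to ssc-miR-199a-5p is 0.0352 ± 0.0141 in Hb and 0.0686 to 0.0747 on average in the other groups.

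The ratio of each end variant to its arm is given as a description with no test, since the ratios were chosen after their values were seen. The longer form miR-199-x stood at 0.0435 to 0.0457 of ssc-miR-199b-5p in Ha and at 0.0337 to 0.0452 in Hb. In La it stood at 0.0359 to 0.0418 and in Lb at 0.0328 to 0.0366, so the LC libraries lay below the HZ libraries at 30 days without overlap and overlapped with them at 120 days. Relative to ssc-miR-214-3p, miR-214-y stood at 0.333 in HZ boars at 30 days and 0.508 at 120 days. In LC boars it stood at 0.338 and 0.256. Its spread was widest in Hb, from 0.319 to 0.729. miR-214-z stood at 0.0656, 0.0590, 0.0597 and 0.0353 in the same order, and miR-199-y at no more than 0.00349 of the miR-199 3p arm in any group mean. Summing each variant with its arm left 2 of 5 arms lower by adjusted p under 0.05 in Ha vs. Hb and 5 of 5 in La vs. Lb. In those fits 34.3 and 40.0% of all miRNAs passed in either direction. In the fits without summing, 13.0 and 13.4% of all miRNAs were lower.

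The miRNAs most like ssc-miR-199a-5p were sought by Pearson r of log2(TPM + 1) over the 12 libraries among 427 others with a mean of at least 10 TPM. The 5 closest were ssc-miR-181a (r = 0.98), ssc-miR-574-5p (0.97), ssc-let-7e (0.966), ssc-miR-455-3p (0.962) and ssc-miR-676-3p (0.96). After subtraction of the group means r was 0.732 to 0.85, and the libraries share their depth and composition. The choice by likeness over all 12 libraries, group means included, fixes that they vary with age as ssc-miR-199a-5p does, so their values are a description. Mean levels of ssc-miR-181a were 12197 TPM in Ha, 6165 TPM in Hb, 16207 TPM in La and 8624 TPM in Lb. Those of ssc-miR-676-3p were 112 and 26.8 TPM in Ha and Hb and 112 and 34.8 TPM in La and Lb.

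Other miRNAs known from fibroblasts, smooth muscle and further mesenchymal cells included some that were higher and some that were lower with age. Of a list of 25 pig-named entries, which hold 24 sequences, 4 were higher and 5 lower with age in HZ boars by adjusted p under 0.05, beside 21.3 and 13.0% of all miRNAs. In LC boars 9 were higher and 4 lower, beside 26.8 and 13.4%. The median log2 fold change over the 24 sequences was -0.05 and 0.08, beside 0.32 over all miRNAs in both. ssc-miR-143-3p and ssc-miR-145-3p, 3p arms of a hairpin pair known from smooth muscle, were higher at 120 days in both breeds. ssc-miR-143-3p went from a mean of 21594 TPM in Ha to 62732 TPM in Hb (log2 fold change 1.74, adjusted p = 0.00134) and from 17907 TPM in La to 42358 TPM in Lb (1.05, adjusted p = 3.1e-05). ssc-miR-145-3p had 1.89 (adjusted p = 0.00258) and 1.16 (adjusted p = 2.69e-05). The other arms of these hairpins passed in LC boars and not in HZ boars. ssc-miR-145-5p, the more abundant arm of its hairpin, had 0.72 (adjusted p = 0.0726) in HZ and 1.62 (adjusted p = 1.1e-07) in LC boars, and ssc-miR-143-5p had 0.68 (adjusted p = 0.062) and 1.60 (adjusted p = 1.51e-06). In the test of the difference between the age effects their adjusted p was 0.153 and 0.0924. ssc-miR-125b was lower, with log2 fold changes of -0.89 (adjusted p = 0.0128) and -0.73 (adjusted p = 0.000295). The most abundant entries of the list were ssc-miR-27b-3p and ssc-miR-10b. ssc-miR-27b-3p had -0.262 (adjusted p = 0.406) in HZ and -0.925 (adjusted p = 1.71e-05) in LC boars. ssc-miR-10b had 0.044 (adjusted p = 0.905) and -0.362 (adjusted p = 0.125). Between the breeds 1 entry was higher and 1 lower at 30 days, beside 5.01 and 6.34% of all miRNAs. At 120 days 0 passed in edgeR's test, beside 1.11 and 2.15%, and 1 was called higher and 2 lower by the study's thresholds, beside 122 and 121 of 1444 miRNAs.

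Markers of other cells differed in how they varied with age. Of 5 names listed for meiotic and haploid germ cells, 1 had a pig-named entry (miR-34c), at 12.5 to 62.0 TPM in the libraries at 30 days. It was at 1218, 1732 and 11014 TPM in Hb and at 9330 to 11634 TPM in Lb. Within Hb the library with the most miR-34c, replicate 3, held neither the highest nor the lowest ssc-miR-199a-5p or ssc-miR-199b-5p. A rank among 3 libraries cannot show whether these levels vary together, and this was not tested. The summed level of the 24 mesenchymal sequences ran from 207895 to 223116 TPM in the libraries at 30 days. It was 239786 to 244154 TPM in Hb and 216068 to 232343 TPM in Lb and was highest in Hb. This rested on ssc-miR-143-3p and ssc-miR-100, picked after their values were seen, since without them the sum was 184225 to 196004 TPM in Ha, 136743 to 172928 TPM in Hb, 180801 to 191503 TPM in La and 150836 to 174041 TPM in Lb. That reduced sum was lower at 120 days in both breeds without overlap, and Hb and Lb overlapped. Both omitted entries were higher at 120 days in both breeds, so leaving them out favours a lower remainder at that age. The reduced sum is therefore a description only. The 2 entries of miR-202, known from Sertoli cells, summed to 18568 to 21737 TPM in Ha and 9575 to 17214 TPM in Hb. In LC boars they summed to 15179 to 17180 TPM in La and 17897 to 24312 TPM in Lb, so they were lower at 120 days in HZ boars and higher in LC boars without overlap. The 2 endothelial miR-126 entries summed to 12482 to 15560 TPM in Ha, 11040 to 11910 TPM in Hb, 11485 to 13103 TPM in La and 8529 to 10997 TPM in Lb. Like most members they were lower at 120 days in both breeds without overlap. Blood entries (7) summed to 3361 to 3765 TPM in La and 1882 to 2333 TPM in Lb, lower at 120 days without overlap, and to 2345 to 2696 TPM in Ha and 1231 to 3071 TPM in Hb, with overlap. At 30 and 120 days striated muscle entries (8) summed to 213 to 369 and 479 to 913 TPM, and epithelial entries (3), which overlapped between the ages, to 61.6 to 93.7 and 28.2 to 150.3 TPM. The part of these cells in the results on miR-199 and miR-214 was not tested.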

How the data were processed

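Testis small RNA was sequenced in 12 libraries. The authors trimmed reads with fastp, removed tags of other non-coding RNAs and of exons, introns and repeats of Sscrofa11.1, aligned what was left with miRBase by bowtie, and used miRDeep2 for prediction. The deposited counts are raw tag counts per miRNA, and the TPM that the authors deposited divides them by a library total and writes a count of 0 as 0.01. Tags removed as exonic or intronic, and tags matching several names, could change the level of an entry. Groups came from the breed and age labels.

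Counts were tested here with edgeR 4.0.16 (quasi-likelihood test, TMM, R 4.3.3) in a separate fit per pair of groups over every miRNA with at least 1 count in its 6 libraries, with Benjamini-Hochberg adjustment over all of them. The interaction used all 12 libraries. The SE is the absolute log2 fold change divided by the square root of F. The words higher, lower and fell mark an adjusted p under 0.05, except for TPM, shares and ratios, where they describe values. Ratios were tested by exact permutation. The permutation test was checked on simulated log ratios. The edgeR fits of Ha vs. Hb, Hb vs. Lb and the interaction were checked on simulated counts with 200 changed miRNAs each. By adjusted p under 0.05 they found 179, 181 and 135 of these in the right direction, and 9, 5 and 2 unchanged miRNAs passed. Every member was named, with the 5 most alike miRNAs, seed sharers and fixed lists of mesenchymal and other cell type miRNAs. The members and lists were chosen with earlier results of these data known.

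Alternatives were edgeR's exact test, DESeq2 1.42.0, RLE or library size scaling, filterByExpr, robust estimation, all 12 libraries in 1 fit, a replicate block, merged identical sequences, mean TPM for fold changes, another pseudocount, statistic or scale for ratios and levels, and each library left out. Use of 1 entry for the miR-199 3p arm, summing of end variants and miR-199a-5p alone over the 3p arm were added after seeing the data. Hairpin sequences, mRNA and target genes were not used here.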

Additional observations from a re-analysis of the deposited data

Results flagged for a closer look

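miR-214-y, the form of ssc-miR-214-3p extended at its 3′ end, differed between the breeds in opposite directions at the 2 ages, with no overlap of libraries at either. At 30 days La was 16.03 TPM above Ha (145.8 TPM ± 5.43 against 129.8 TPM ± 4.03, SD, n = 3), and at 120 days the Lb minus Hb difference was -21.7 TPM (80.0 TPM ± 3.21 against 101.6 TPM ± 17.5). The interaction of age and breed on counts had a log2 value of -0.95 (SE 0.344), with an unadjusted p of 0.0136 and an adjusted p of 0.124 in edgeR's quasi-likelihood test, so it did not pass. It rested on single libraries and on scaling. Without Hb replicate 1 the value was -1.18 with an adjusted p of 0.0149, which passes, without Hb replicate 2 it was -0.46, and with library size scaling it was -0.49 (adjusted p = 0.364). Its adjusted p was at least 0.0715 under every alternative other than leaving out Hb replicate 1.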

How the results depend on the processing

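Of the members called by the study's thresholds, Ha vs. Hb gave 4 with library size scaling or fold changes from mean TPM and 1 with end variants summed, La vs. Lb gave 1 under each of these, Ha vs. La gave 0 with DESeq2, filterByExpr, the replicate block or end variants summed, Hb vs. Lb gave 1 with end variants summed, and the interaction gave 1 with DESeq2 or filterByExpr and 0 with end variants summed. By adjusted p under 0.05 the counts were 7 (all 12 libraries in 1 fit) and 2 (end variants summed) in Ha vs. Hb, 5 (end variants summed) in La vs. Lb, 0 (library size scaling or all 12 libraries) and 2 (exact test, 1 entry for the 3p arm or end variants summed) in Ha vs. La, 1 (RLE or end variants summed) and 0 (library size scaling) in Hb vs. Lb, and 2 (DESeq2 or filterByExpr) in the interaction. With end variants summed fewer entries were tested; for the rest the cause was not tested. With 1 library left out, members called ranged from 2 to 5 in Ha vs. Hb, 1 to 7 in La vs. Lb, 0 to 1 in Ha vs. La, 2 to 3 in Hb vs. Lb and 0 to 4 in the interaction, and those with an adjusted p under 0.05 from 2 to 7, 8 to 10, 0 to 4, 0 to 2 and 0 to 3. The replicate numbers do not pair the libraries (correlations of same-numbered deviations from -0.12 to 0.13), and with the replicate block 3, 9, 3, 2 and 0 members had an adjusted p under 0.05 in the same order.

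Signs turned only in small log2 fold changes that had not passed. These were miR-199-y in Ha vs. Hb (-0.15 library size, -0.055 replicate block, -0.16 mean TPM); miR-214-z in Ha vs. La (-0.001 library size); in Hb vs. Lb ssc-miR-214-5p (-0.026 RLE, -0.024 DESeq2, -0.031 filterByExpr), both 3p names (0.32 library size, 0.30 mean TPM), miR-199-z (0.18 library size, 0.008 replicate block, 0.16 mean TPM) and ssc-miR-214-3p (-0.033 end variants summed); and in the interaction ssc-miR-214-3p (-0.024 RLE or DESeq2, -0.22 end variants summed), ssc-miR-199a-5p (0.27 library size, 0.25 mean TPM), both 3p names (0.026 library size, 0.002 mean TPM) and ssc-miR-214-5p (0.14 library size, 0.12 mean TPM). With 1 library left out the sign also turned for miR-214-y (-0.55 to 0.20), miR-199-y (-0.43 to 0.46) and miR-199-z (-0.28 to 0.52) in Ha vs. Hb, miR-214-z (-0.051 to 0.17) in Ha vs. La, the 3p names (-0.23 to 0.29), ssc-miR-214-5p (-0.10 to 0.15) and miR-199-z (-0.36 to 0.37) in Hb vs. Lb, and ssc-miR-199a-5p (-0.20 to 0.044) and ssc-miR-214-3p (-0.01 to 0.18) in the interaction.

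With entries named without a species added to their arm, the age differences of the log2 5p to 3p ratios were -0.26 for miR-199 and 0.27 for miR-214 (exact permutation, adjusted p = 0.04 for both). With the difference of medians they were -0.17 and 0.31 (adjusted p = 0.12 and 0.08), with the replicate block the adjusted p was 0.1875 for both, and with 1 count added or miR-199a-5p alone it stayed at 0.05. With the species-less entries added the breed differences were 0.054 for miR-214 and -0.073 for ssc-miR-214-3p over the miR-199 3p arm. With 1 library left out the age differences ranged from -0.29 to -0.18, 0.22 to 0.35, -0.61 to -0.33 (miR-199b-5p over miR-199a-5p) and -0.02 to 0.15 (miR-214-3p over the 3p arm), and the breed differences from 0.005 to 0.12, -0.15 to -0.02, 0.45 to 0.73 and -0.028 to 0.14. With TMM scaling the summed level had a log2 ratio of -1.06 (Lb over La), 0.32 (La over Ha) and 0.23 (Lb over Hb). With 1 library left out it was -1.23 to -0.97 (Hb over Ha), -0.88 to -0.77 (Lb over La), 0.20 to 0.27 (La over Ha) and 0.39 to 0.64 (Lb over Hb). Over all miRNAs, filterByExpr called 352, 257 and 62 in Ha vs. Hb, La vs. Lb and Ha vs. La against 570, 464 and 121, and in Hb vs. Lb 18.3% of the 793 tested against 16.8% of 1444. By adjusted p, Hb vs. Lb had 47 miRNAs against 9 with library size scaling, 120 with DESeq2, 119 with the exact test, 177 with all 12 libraries in 1 fit and 138 with the replicate block; Ha vs. La had 11.3% of 1278 against 29 miRNAs with all 12 libraries; and the interaction had 20 against 36 (RLE), 0 (library size), 121 (DESeq2), 63 (filterByExpr) and 10 (identical sequences merged). Depth limits miR-199-z and miR-214-x, at 27 counts or fewer per library.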
